A study of Mus musculus with 37 samples.

Results

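The comparison set 3 libraries of cerebellar RNA from 1-month-old mice with a brain-specific deletion of Mll4 (KO) against 3 libraries from floxed mice of the same age that kept the gene (WT). They are 6 of the 37 samples of the series, chosen by genotype and age in the labels, and all mice were of strain C57BL/6. The floxed allele is written Mll4f/f in the study's design and the deletion is written BSKO. The Cre driver is not given in the sources used here, so which brain cells lost the gene is not known, and the labels do not say whether the 3 libraries of a genotype came from separate animals. P-values therefore measure how far these libraries spread, and that spread may be technical. Each library was total RNA of cerebellar tissue, and the authors' FPKM values (fragments scaled by transcript length and library size) were compared on the scale log2(FPKM + 1), on which changes of weakly expressed genes look smaller than they are. Of 29955 gene symbols, the 14847 that averaged 1 FPKM or more across the 6 libraries were tested. They are described here in 57 gene families and cell type marker lists, some of which share members.

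MLL4 is a histone methyltransferase that places methyl marks on lysine 4 of histone H3, chiefly at enhancers, where active genes are switched on from a distance. The cerebellum is built mainly from granule neurons, small excitatory cells that send parallel fibres onto Purkinje cells, the inhibitory output neurons of its cortex. Bergmann glia, astrocytes, oligodendrocytes and microglia support these neurons, and the brainstem lies directly beneath, with cholinergic, monoamine and glycine neurons and Hox gene expression that the cerebellar cortex largely lacks.

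The targeted gene did not separate the genotypes. The table holds no entry named Mll4 or Kmt2d, its current symbol. The entry Mll2 is an older name given for both Kmt2d and Kmt2b, and it was read as Kmt2d because Kmt2b has its own older entry, Wbp7. Mll2 stood at 18.2, 19.9 and 22.3 FPKM in WT and 12.7, 13.6 and 23.5 FPKM in KO, and the library labelled KO replicate 3 was above every WT library. The difference was not past the test (log2 difference -0.31 ± 0.23 SE, limma adjusted p = 0.393; exact two-sided permutation p = 0.4 on FPKM, where 3 against 3 libraries allow no p under 0.1). Without KO replicate 3 the log2 difference was -0.58 with limma adjusted p = 0.0167. A gene-level FPKM also counts fragments outside a deleted stretch, so the value does not show whether the protein was lost.

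Libraries of a genotype were not equally spaced. Across 7294 genes that averaged 10 FPKM or more, WT replicates 1 and 2 differed by 0.077 log2 units (median of absolute differences), as did KO replicates 1 and 2. KO replicate 3 lay 0.248 and 0.246 from the other KO libraries and 0.158 and 0.155 from WT replicates 1 and 2. WT replicate 3 lay 0.190 and 0.179 from the other WT libraries and 0.201 from KO replicate 3, so KO replicate 3 was nearer to WT replicates 1 and 2 than WT replicate 3 was. Values are therefore given for every library.

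At an adjusted p under 0.05, 4 of 14847 genes differed (0.0269%), 2 higher in KO (0.0135%) and 2 lower (0.0135%), and 3 of them are transcripts whose accession-like symbols are not used here. The fourth was Lgals1, which encodes galectin 1, a sugar-binding protein of many tissues. It stood at 7.72, 8.08 and 7.53 FPKM in WT and 35.8, 31.9 and 25.04 FPKM in KO, so that every KO library was above every WT library (log2 difference 1.85 ± 0.15 SE, limma adjusted p = 0.0245). Of the 6 fits that left out 1 library, only that without KO replicate 3 kept it under 0.05 (limma adjusted p = 0.000567), and the others gave 0.0520 to 0.183. With the replicate number as a block the limma adjusted p was 0.0777. Because so few genes passed, a second threshold of an adjusted p under 0.10 was taken with earlier results of these data known, and "rose" and "fell" refer to it. At that threshold 2381 genes (16.0%) differed, 1183 higher (7.97%) and 1198 lower (8.07%) in KO. These percentages are the background for every family. The filter is on the mean of all 6 libraries, so a member under 1 FPKM in WT could pass it only by being higher in KO, and the number of such members is given where a family had several. Counts over a family's tested members are descriptions. In 2258 genes (15.2%) all 3 KO values were above all 3 WT values, and in 3050 genes (20.5%) all 3 were below.

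These counts rested heavily on single libraries. The 2381 genes became 6645 without KO replicate 3 and 486 without WT replicate 3. Without WT replicate 1, WT replicate 2, KO replicate 1 or KO replicate 2 they became 1, 5, 7 and 5. When replicates 1 and 2 of each genotype were averaged into 1 library, an alternative chosen after seeing the data, limma left 1 gene past 0.10 and 0 past 0.05, and 1433 genes had an unadjusted p below 0.05. Shifting the libraries to 1 median gave 2331 genes, 1457 of them higher and 874 lower, and moved the median log2 difference of all genes from -0.04 to 0.03.

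**Figure D1:**
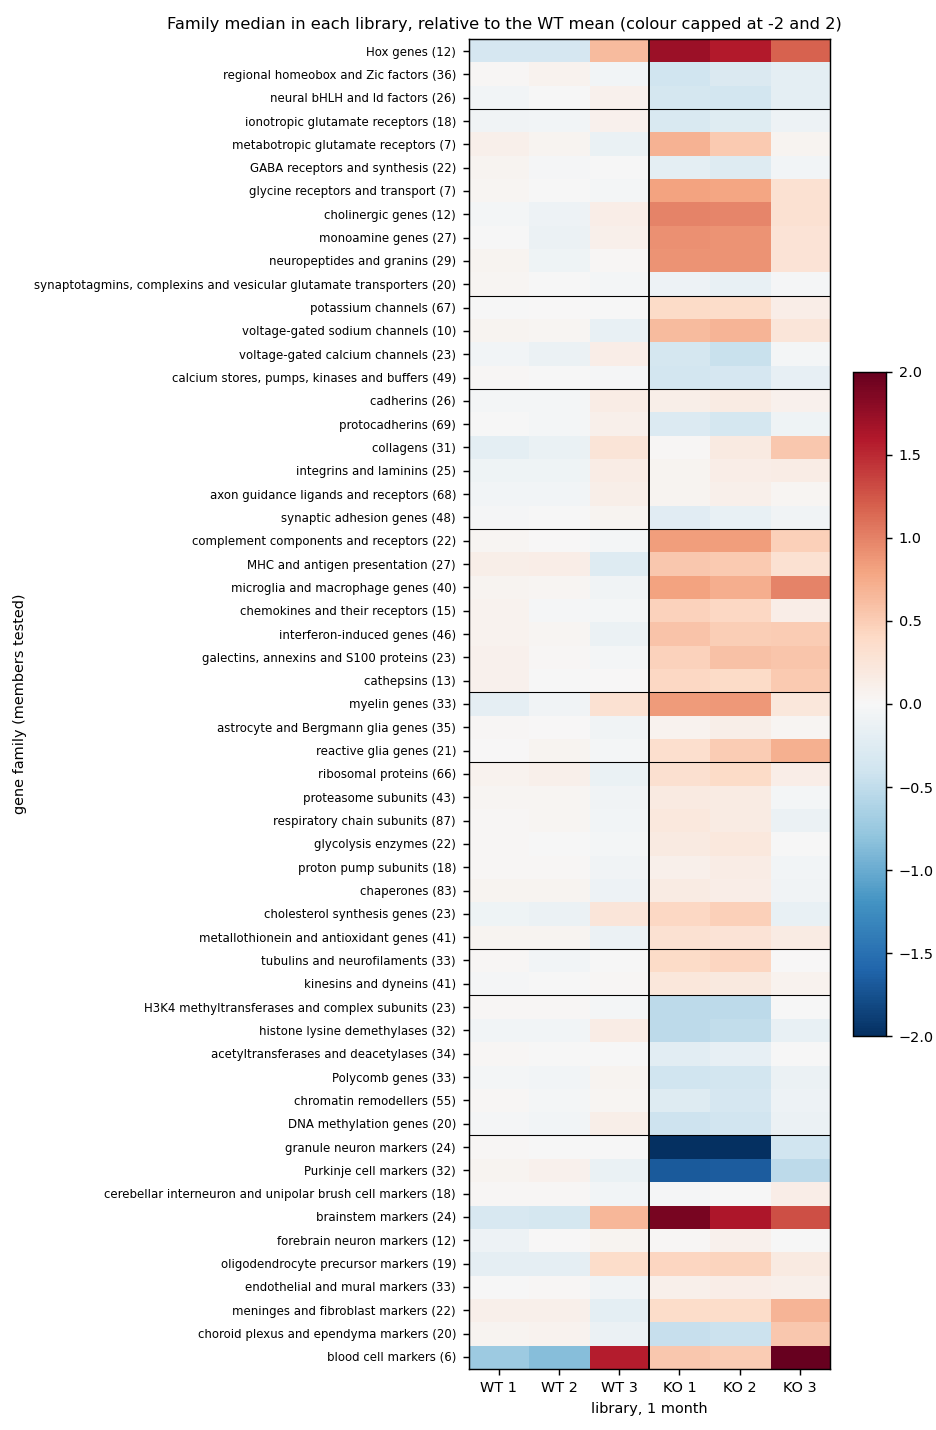
Each row is a gene family with its number of tested members, each column a library, and the colour is the median over members of log2(FPKM + 1) minus the WT mean. Granule neuron markers reach -2.30 and -2.18 in KO replicates 1 and 2 and -0.40 in KO replicate 3, whereas microglia genes stand at 0.80, 0.72 and 0.99.

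Marker levels showed which tissues and cells contributed RNA. The 6 defining granule neuron markers (Gabra6, Neurod1, Zic1, Cbln3, Fat2 and Reln) summed to 990 to 1079 FPKM in WT and to 146, 145 and 693 FPKM in KO. The 6 Purkinje cell markers summed to 1272 to 1598 FPKM in WT and to 253, 241 and 930 FPKM in KO. All 12 were lower in every KO library than in any WT library. In tissue RNA, fewer cells of a type, less RNA per cell and a changed mix of tissue cannot be told apart.

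Markers of neighbouring tissue moved as well. The 6 brainstem markers, among them Chat, Hoxb3 and Tph2, summed to 2.86, 3.11 and 14.5 FPKM in WT and to 53.0, 51.1 and 30.8 FPKM in KO, with all 6 free of overlap. The 4 defining forebrain markers stayed between 1.92 and 3.29 FPKM in sum in all libraries. The sums for blood were 18.8, 21.1 and 152 FPKM in WT and 52.8, 64.8 and 333 FPKM in KO, highest in replicate 3 of each genotype. Choroid plexus markers, led by Ttr, summed to 732, 700 and 552 FPKM in WT and to 212, 204 and 1090 FPKM in KO, so that KO replicate 3 was the highest library and the other KO libraries the lowest. No defining marker was at 0 in all 6 libraries. The part that the tissue taken, or the mix of cells in it, had in the gene results was not tested.

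**Figure D2:**
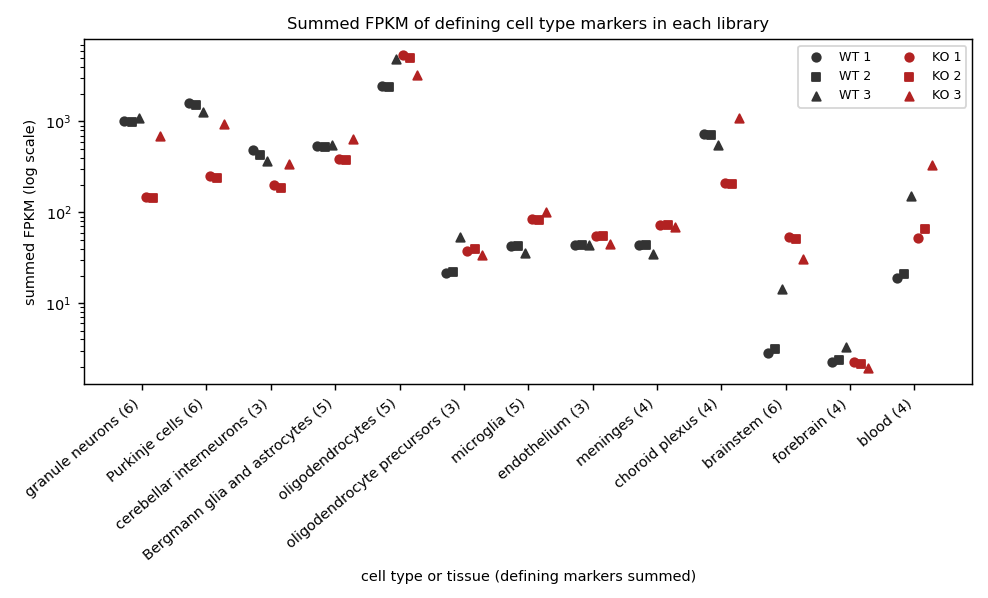
Points are the summed FPKM of the defining markers of each cell type or tissue (number of markers in brackets) on a log scale, black for WT and red for KO, with a symbol for each replicate. Brainstem sums run from 2.86 to 14.5 FPKM in WT and from 30.8 to 53.0 FPKM in KO, and granule and Purkinje sums are lower in every KO library than in any WT library.

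Transcription factors of position and neuronal identity went in both directions. Of 39 symbols of Hox genes, which set position along the hindbrain and spinal cord, 12 passed the filter and 11 of them rose, with a median log2 difference of 1.53. In 10 of the 12 the WT mean was under 1 FPKM, so they passed the filter through the KO libraries and this count had to lean upward. Medians of the 12 in each library, as differences from the WT mean, were -0.34, -0.34 and 0.63 in WT and 1.71, 1.58 and 1.18 in KO, with WT replicate 3 above the other WT libraries. Hoxb3 stood at 0.391, 0.421 and 2.1 FPKM in WT and 6.14, 4.56 and 3.597 FPKM in KO (log2 difference 1.63 ± 0.34 SE, limma adjusted p = 0.0648). Hoxc5 stood at 0.171, 0.106 and 0.6097 FPKM in WT and 2.65, 2.97 and 2.23 FPKM in KO (log2 difference 1.496 ± 0.17 SE, limma adjusted p = 0.0568). In both, every KO library was above every WT library, and KO replicate 3 was the lowest KO library.

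Among 36 tested regional homeobox and Zic factors 12 fell and 6 rose. In 4 of the 36 the WT mean was under 1 FPKM, and in 2 the KO mean was. The median log2 difference was -0.57, and it changed sign when no filter on low values was used. Zic1, a factor of granule cell precursors and granule neurons, stood at 171, 174 and 186 FPKM in WT and 32.2, 31.9 and 99.2 FPKM in KO (log2 difference -1.89 ± 0.42 SE, limma adjusted p = 0.0703). En2, which patterns the midbrain and cerebellum, stood at 27.4, 32.6 and 29.7 FPKM in WT and 4.09, 3.84 and 17.5 FPKM in KO (log2 difference -2.003 ± 0.50 SE, limma adjusted p = 0.0781). In both, KO replicates 1 and 2 were the lowest libraries and KO replicate 3 lay between them and WT. Barhl1, a granule lineage factor, was at 3.295, 2.99 and 3.47 FPKM in WT and 1.23, 1.35 and 2.24 FPKM in KO and also fell (log2 difference -0.72 ± 0.16 SE, limma adjusted p = 0.0705). Meis2 rose, with 8.15, 7.34 and 5.61 FPKM in WT and 26.2, 22.97 and 11.8 FPKM in KO (log2 difference 1.35 ± 0.30 SE, limma adjusted p = 0.0686). Pax2, which marks precursors of cerebellar inhibitory interneurons, rose to nearly the same level in all 3 KO libraries, with 1.72, 1.33 and 1.53 FPKM in WT and 3.44, 3.56 and 3.63 FPKM in KO (log2 difference 0.85 ± 0.10 SE, limma adjusted p = 0.0612). Its difference became -0.07 when the 2 libraries of 4 months were added with age as a term. Pax3 fell, with 2.89, 2.28 and 2.39 FPKM in WT and 0.967, 1.08 and 1.51 FPKM in KO (log2 difference -0.69 ± 0.14 SE, limma adjusted p = 0.0648).

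Neural basic helix-loop-helix factors and their Id and Hes partners included 6 that fell and 2 that rose among 26 tested. Neurod1, which granule neurons need to differentiate and survive, stood at 155, 151 and 183 FPKM in WT and 17.9, 18.04 and 93.4 FPKM in KO (log2 difference -2.33 ± 0.61 SE, limma adjusted p = 0.08099). Bhlhe22 stood at 14.8, 16.3 and 21.6 FPKM in WT and 3.85, 4.24 and 11.2 FPKM in KO (log2 difference -1.44 ± 0.36 SE, limma adjusted p = 0.0789). Both were lowest in KO replicates 1 and 2 and intermediate in KO replicate 3. Atoh8 fell, with 1.48, 1.74 and 2.25 FPKM in WT and 0.518, 0.769 and 0.834 FPKM in KO, and every KO library was below WT (log2 difference -0.72 ± 0.14 SE, limma adjusted p = 0.0648). Olig2, a factor of the oligodendrocyte lineage, rose with 8, 8.804 and 10.1 FPKM in WT and 16.8, 18.04 and 11.7 FPKM in KO (log2 difference 0.71 ± 0.18 SE, limma adjusted p = 0.0781), and Heyl, a Notch-responsive repressor, rose with 1.09, 1.04 and 1.05 FPKM in WT and 2.17, 2.23 and 1.57 FPKM in KO (log2 difference 0.53 ± 0.12 SE, limma adjusted p = 0.0723).

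Several glutamate receptor subunits of cerebellar cortex fell. Among 18 tested ionotropic subunits 6 fell and 2 rose. Gria4, an AMPA receptor subunit, stood at 151, 139.5 and 146 FPKM in WT and 80.4, 79.96 and 116 FPKM in KO (log2 difference -0.68 ± 0.16 SE, limma adjusted p = 0.0761). KO replicate 3 was nearer WT than the other KO libraries. Grin2a differed in this: 18.8, 18.9 and 21.7 FPKM in WT and 13.7, 14.9 and 14.8 FPKM in KO placed all 3 KO libraries together below WT (log2 difference -0.42 ± 0.11 SE, limma adjusted p = 0.0784). Grin2c, the NMDA receptor subunit of mature granule neurons, was at 66.2, 69.9 and 65.2 FPKM in WT and 13.2, 14.05 and 52 FPKM in KO (log2 difference -1.601 ± 0.49 SE, limma adjusted p = 0.0975). Grid1 and Grin3a were the 2 that rose, Grin3a with 10.2, 9.49 and 13.8 FPKM in WT and 22.8, 22.2 and 13.7 FPKM in KO (log2 difference 0.74 ± 0.23 SE, limma adjusted p = 0.09796), where KO replicate 3 lay within the WT range. Of 7 metabotropic receptors 2 fell and 0 rose. Grm4, which granule neurons carry on their parallel fibres, fell and stood at 159, 179.9 and 145 FPKM in WT and 22.5, 25.7 and 108 FPKM in KO (log2 difference -1.98 ± 0.56 SE, limma adjusted p = 0.0889).

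Of 22 tested genes of GABA receptors and synthesis 6 rose and 6 fell. Those that fell included Gabra6, the subunit specific to granule neurons, at 219, 213 and 217 FPKM in WT and 29.5, 28.5 and 145 FPKM in KO (log2 difference -2.09 ± 0.59 SE, limma adjusted p = 0.0891), and Gabrb2 at 91.6, 91.5 and 99.1 FPKM in WT and 40.5, 39.7 and 63.9 FPKM in KO (log2 difference -0.99 ± 0.19 SE, limma adjusted p = 0.0648). In both genes every KO library was below every WT library, and KO replicate 3 was the highest KO library. Gabra5, Gabra3, Gabrg3 and Gabrq rose. Gabra5 stood at 4.63, 4.099 and 5.13 FPKM in WT and 17.4, 16.4 and 9.29 FPKM in KO (log2 difference 1.41 ± 0.23 SE, limma adjusted p = 0.06396), and Gabra3 stood at 8.31, 7.68 and 8.35 FPKM in WT and 22.7, 20.7 and 13.2 FPKM in KO (log2 difference 1.09 ± 0.20 SE, limma adjusted p = 0.06396). Levels of different subunits are per length of transcript and are compared here only between libraries of the same gene.

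Several genes of glycine, acetylcholine and monoamine neurons rose, as the brainstem marker sums were higher in every KO library. Glycine genes numbered 7 tested, and 4 rose. The receptor subunit Glra1 stood at 15.01, 13.5 and 32.6 FPKM in WT and 87.3, 88.4 and 55.9 FPKM in KO (log2 difference 1.95 ± 0.35 SE, limma adjusted p = 0.06396), and Slc6a5, the transporter of glycine neurons, stood at 12.2, 12.6 and 26.8 FPKM in WT and 70.2, 75.4 and 41.6 FPKM in KO (log2 difference 1.85 ± 0.35 SE, limma adjusted p = 0.0648). WT replicate 3 was the highest WT library and KO replicate 3 the lowest KO library in both. Among 12 tested cholinergic genes, 3 of them under 1 FPKM in WT, 7 rose and Chrnb2 fell. Chat, which makes acetylcholine, stood at 0.206, 0.243 and 2.39 FPKM in WT and 7.66, 8.26 and 5.63 FPKM in KO (log2 difference 2.24 ± 0.41 SE, limma adjusted p = 0.06396). The choline transporter Slc5a7 stood at 0.627, 0.633 and 3.96 FPKM in WT and 16.5, 15.9 and 7.003 FPKM in KO (log2 difference 2.496 ± 0.51 SE, limma adjusted p = 0.0648). Chrnb2, a nicotinic receptor subunit, stood at 24, 22.04 and 25.6 FPKM in WT and 15.3, 15.5 and 17.3 FPKM in KO (log2 difference -0.54 ± 0.11 SE, limma adjusted p = 0.0648), the opposite direction, with the 3 KO libraries close together.

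Of 40 monoamine symbols 27 were tested, 11 rose and 0 fell. In 4 of the 27 the WT mean was under 1 FPKM, so that part of the count had to lean upward. Tph2, the enzyme of serotonin neurons, stood at 0.357, 0.368 and 2.35 FPKM in WT and 10.2, 10.02 and 3.85 FPKM in KO (log2 difference 2.196 ± 0.46 SE, limma adjusted p = 0.0648). Its 3 WT libraries were below the lowest KO library. Th, which makes the precursor of dopamine and noradrenaline and is also active in some Purkinje cells, stood at 1.98, 1.76 and 3.32 FPKM in WT and 6.26, 6.25 and 6.94 FPKM in KO (log2 difference 1.18 ± 0.18 SE, limma adjusted p = 0.0619). KO replicate 3 had the highest value of Th, unlike most transmitter genes. Receptors followed: Htr2a stood at 1.44, 1.06 and 2.23 FPKM in WT and 6.5, 6.39 and 2.85 FPKM in KO (log2 difference 1.24 ± 0.30 SE, limma adjusted p = 0.0759) and Htr7 at 2.096, 1.46 and 2.49 FPKM in WT and 6.46, 6.79 and 3.83 FPKM in KO (log2 difference 1.13 ± 0.22 SE, limma adjusted p = 0.0648). Both were highest in KO replicates 1 and 2.

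Neuropeptide and granin genes rose in 13 of 29 tested and fell in 1, and 4 of the 29 were under 1 FPKM in WT. Calca, the gene of calcitonin gene-related peptide, stood at 0.951, 0.87 and 3.18 FPKM in WT and 9.44, 9.43 and 8.88 FPKM in KO (log2 difference 2.05 ± 0.31 SE, limma adjusted p = 0.0612). Sst, which encodes somatostatin, stood at 30.2, 28.5 and 28.5 FPKM in WT and 75.1, 77.1 and 42.3 FPKM in KO (log2 difference 1.08 ± 0.23 SE, limma adjusted p = 0.0675). Adcyap1, the gene of the peptide PACAP, stood at 5.65, 4.51 and 5.18 FPKM in WT and 9.81, 9.2 and 10.3 FPKM in KO (log2 difference 0.82 ± 0.11 SE, limma adjusted p = 0.0612). Calca and Adcyap1 were about as high in KO replicate 3 as in the other KO libraries, whereas Sst was not. The 1 that fell was Chgb, a granin that packs secretory granules, at 211, 193 and 199 FPKM in WT and 132, 125 and 126 FPKM in KO (log2 difference -0.65 ± 0.10 SE, limma adjusted p = 0.0612). All 3 KO libraries of Chgb lay together below WT.

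The release machinery changed by isoform. Of 20 synaptotagmins, complexins and vesicular glutamate transporters tested, 4 rose and 5 fell. Slc17a7, the vesicular transporter of parallel fibres, stood at 109, 112 and 119 FPKM in WT and 29.98, 33.6 and 78.9 FPKM in KO (log2 difference -1.37 ± 0.35 SE, limma adjusted p = 0.0789). Cplx2 stood at 113, 114 and 95.8 FPKM in WT and 56.4, 59.9 and 75.9 FPKM in KO (log2 difference -0.75 ± 0.15 SE, limma adjusted p = 0.0648), and Cplx1 stood at 154, 159.7 and 156 FPKM in WT and 277, 235 and 204 FPKM in KO (log2 difference 0.59 ± 0.13 SE, limma adjusted p = 0.0705). The complexins thus differed in opposite directions, each without overlap between groups. Syt2, a fast calcium sensor, stood at 141, 142 and 128 FPKM in WT and 196, 207 and 181 FPKM in KO and rose (log2 difference 0.50 ± 0.11 SE, limma adjusted p = 0.0655); its difference became -0.29 when the 2 libraries of 4 months were added with age as a term.

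**Figure D3:**
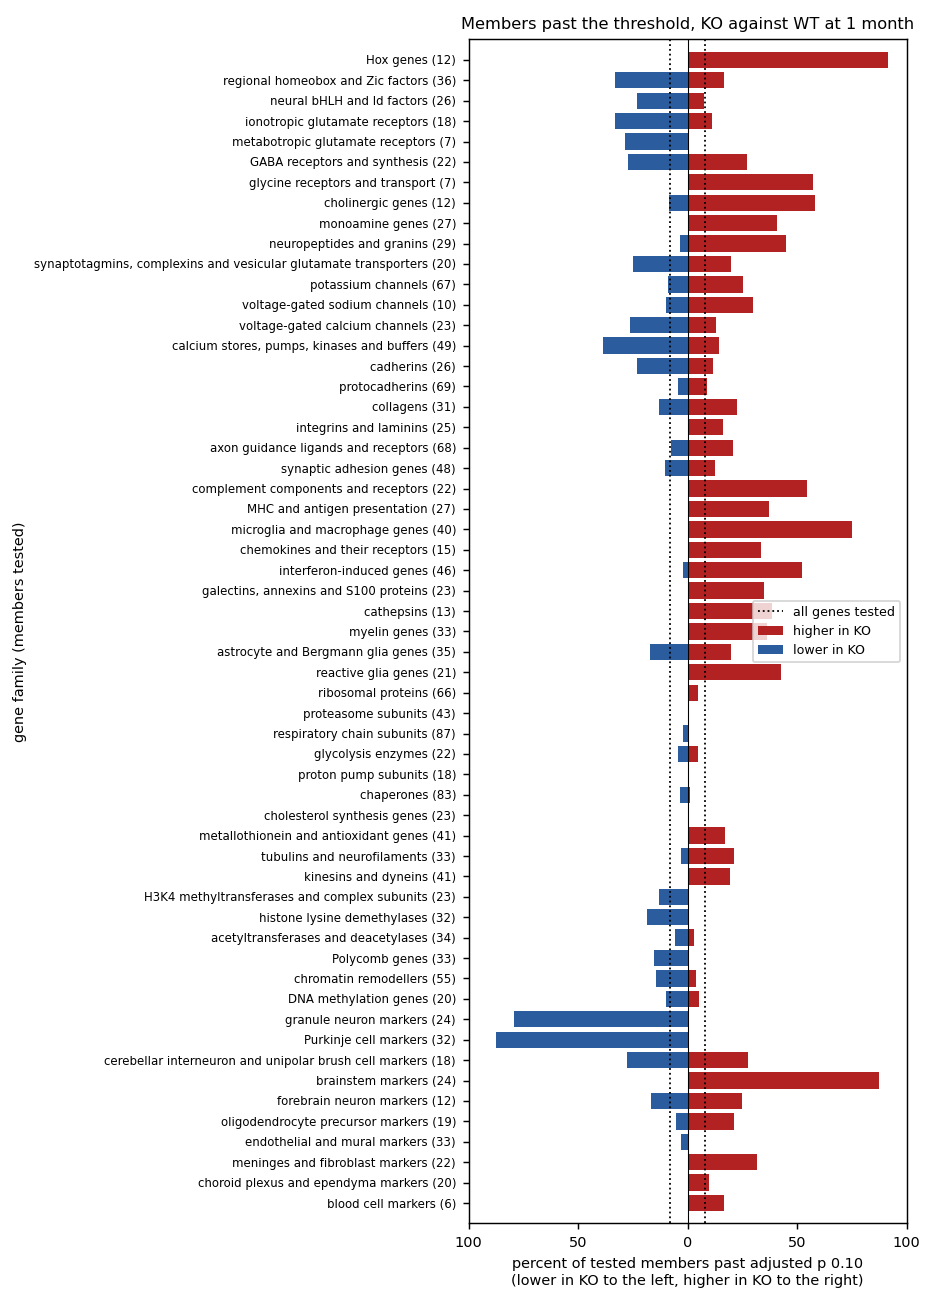
Bars give the percent of each family's tested members past a limma adjusted p of 0.10, lower in KO to the left and higher to the right, with the number tested in brackets. Dotted lines mark all genes tested (7.97% higher and 8.07% lower), and metabolic and proteasome families sit inside them.

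Of 67 tested potassium channel genes 17 rose and 6 fell, and their median log2 difference of 0.23 changed sign among genes of at least 5 FPKM. In 6 of the 67 the WT mean was under 1 FPKM. Kcnh2, a channel of the ERG type, stood at 12.8, 12.5 and 12.2 FPKM in WT and 28.1, 28.6 and 20.96 FPKM in KO (log2 difference 0.98 ± 0.14 SE, limma adjusted p = 0.0612). It was highest in KO replicates 1 and 2. Kcnj10, the glial channel that takes up potassium, stood at 54.3, 56.7 and 57.2 FPKM in WT and 88.2, 86.2 and 89.4 FPKM in KO (log2 difference 0.64 ± 0.09 SE, limma adjusted p = 0.0612), and its 3 KO libraries lay together. Hcn2, a pacemaker channel, stood at 51.95, 54.5 and 30.7 FPKM in WT and 109, 114 and 79.6 FPKM in KO (log2 difference 1.15 ± 0.25 SE, limma adjusted p = 0.0691). The leak channel Kcnk3 stood at 16.2, 18.3 and 14.6 FPKM in WT and 6.35, 6.63 and 11.4 FPKM in KO and fell (log2 difference -0.97 ± 0.22 SE, limma adjusted p = 0.0717).

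Sodium channels differed within the family: 3 of 10 rose and 1 fell. Scn4b, a subunit linked to rapid resurgent firing, stood at 33.6, 31.9 and 28.5 FPKM in WT and 73.5, 79.9 and 49.4 FPKM in KO (log2 difference 1.06 ± 0.19 SE, limma adjusted p = 0.06396). Scn2a1, a main channel of axons, stood at 90.9, 86.2 and 86.7 FPKM in WT and 33.4, 33.1 and 55.5 FPKM in KO (log2 difference -1.13 ± 0.21 SE, limma adjusted p = 0.06396). Neither gene had overlapping groups. The table also lists Scn2a, another symbol of the same gene, and how their reads were shared cannot be told. Of 23 voltage-gated calcium channel genes 6 fell and 3 rose. Cacna1g, a T-type channel, stood at 47.5, 49.5 and 67.7 FPKM in WT and 17.6, 19.6 and 38.7 FPKM in KO (log2 difference -1.15 ± 0.30 SE, limma adjusted p = 0.0822), and the Purkinje channel Cacna1a, at 144, 150.2 and 218 FPKM in WT and 44.9, 49.2 and 135 FPKM in KO, missed the threshold (log2 difference -1.31 ± 0.42 SE, limma adjusted p = 0.106). Cacng8 and Cacnb1, accessory subunits, rose, Cacng8 with 10.04, 10.9 and 10.6 FPKM in WT and 15.4, 15.4 and 14.8 FPKM in KO (log2 difference 0.49 ± 0.09 SE, limma adjusted p = 0.0648).

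Calcium stores, pumps, kinases and buffers leaned downward, with 19 of 49 tested lower and 7 higher. Car8, which binds the receptor for inositol trisphosphate in Purkinje cells, stood at 223, 227 and 189 FPKM in WT and 28.4, 28.1 and 107 FPKM in KO (log2 difference -2.24 ± 0.50 SE, limma adjusted p = 0.0703). Calb2, the buffer of granule neurons, stood at 252, 246 and 218 FPKM in WT and 103, 98.97 and 137 FPKM in KO (log2 difference -1.08 ± 0.15 SE, limma adjusted p = 0.0612). Camkk2 stood at 67.2, 68.8 and 80.5 FPKM in WT and 23.1, 24.7 and 39.7 FPKM in KO (log2 difference -1.31 ± 0.21 SE, limma adjusted p = 0.06396), and the plasma membrane pump Atp2b2 stood at 187, 172 and 183 FPKM in WT and 81.9, 88.3 and 119 FPKM in KO (log2 difference -0.92 ± 0.16 SE, limma adjusted p = 0.06396). KO replicate 3 was the highest KO library in all 4 of these genes and below every WT library. Camk2g rose, with 49.3, 47.6 and 44.9 FPKM in WT and 85.5, 86.8 and 61.6 FPKM in KO (log2 difference 0.69 ± 0.16 SE, limma adjusted p = 0.0703), as did Ncs1, a neuronal calcium sensor, with 47.6, 46.8 and 46.3 FPKM in WT and 83.3, 91.1 and 60.1 FPKM in KO (log2 difference 0.70 ± 0.17 SE, limma adjusted p = 0.0745).

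Adhesion families split in both directions. Among 26 cadherins 6 fell and 3 rose. Fat1, a giant cadherin, stood at 81.5, 74.3 and 74.7 FPKM in WT and 29.7, 30.2 and 61.5 FPKM in KO (log2 difference -0.99 ± 0.28 SE, limma adjusted p = 0.08803), and Cdh15 stood at 18.9, 19 and 12.3 FPKM in WT and 1.86, 2.71 and 11 FPKM in KO (log2 difference -1.79 ± 0.52 SE, limma adjusted p = 0.0932). Cdh11, a cadherin of mesenchymal cells and some neurons, stood at 8.91, 8.79 and 8.51 FPKM in WT and 15.1, 14.5 and 11.3 FPKM in KO and rose (log2 difference 0.58 ± 0.13 SE, limma adjusted p = 0.0717). Protocadherins numbered 69 tested, with 6 higher and 3 lower, near or under the background share in both directions, although 57 of the 69 differences were negative. Among them Pcdh15 rose, with 2.84, 2.92 and 3.37 FPKM in WT and 6.89, 6.38 and 4.51 FPKM in KO (log2 difference 0.76 ± 0.16 SE, limma adjusted p = 0.0648). Members of the clustered protocadherins share exons, so their values cannot be told apart with certainty.

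Among 48 synaptic adhesion genes 6 rose and 5 fell. Cbln1, the organiser that granule neurons release at their synapses with Purkinje cells, stood at 267, 248 and 200.4 FPKM in WT and 44.1, 41.3 and 163 FPKM in KO (log2 difference -1.81 ± 0.51 SE, limma adjusted p = 0.0882). C1ql1, which climbing fibres release onto Purkinje cells, stood at 3.97, 3.34 and 7.32 FPKM in WT and 13.9, 13.1 and 10.6 FPKM in KO (log2 difference 1.25 ± 0.25 SE, limma adjusted p = 0.0648). They moved in opposite directions, and C1ql1 was also raised in WT replicate 3. Among 68 axon guidance genes 14 rose and 5 fell. Nrp1, a semaphorin receptor, stood at 5.68, 6.12 and 6.18 FPKM in WT and 11.7, 11.2 and 9.71 FPKM in KO (log2 difference 0.76 ± 0.11 SE, limma adjusted p = 0.0612), and Slit2 stood at 4.5, 4.604 and 5.01 FPKM in WT and 13.6, 13.2 and 8.33 FPKM in KO (log2 difference 1.13 ± 0.19 SE, limma adjusted p = 0.06396). Sema4c fell, with 8.51, 8.37 and 11.7 FPKM in WT and 3.81, 4.42 and 5.696 FPKM in KO (log2 difference -0.90 ± 0.18 SE, limma adjusted p = 0.0648).

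Collagens included 7 of 31 tested that rose and 4 that fell, and KO replicate 3 had the highest family median (-0.19, -0.13 and 0.26 in WT and 0.03, 0.18 and 0.53 in KO). In 3 of the 31 the WT mean was under 1 FPKM, and in 2 the KO mean was. Col3a1, a fibrillar collagen of vessels and meninges, stood at 5.57, 5.17 and 6.56 FPKM in WT and 17.6, 20.1 and 15.1 FPKM in KO (log2 difference 1.46 ± 0.14 SE, limma adjusted p = 0.0568). Col16a1 stood at 2.41, 2.98 and 4.22 FPKM in WT and 8.01, 8.27 and 7.9 FPKM in KO (log2 difference 1.13 ± 0.17 SE, limma adjusted p = 0.0612). Neither overlapped, and Col16a1 was alike in the 3 KO libraries. Col18a1, a basement membrane collagen, fell with 20.6, 20.6 and 21.3 FPKM in WT and 6.296, 6.67 and 13.7 FPKM in KO (log2 difference -1.22 ± 0.27 SE, limma adjusted p = 0.0692). The 4 meningeal markers summed to 34.9 to 44.3 FPKM in WT and 69.0 to 73.0 FPKM in KO, 3 of 4 without overlap, and their part in the collagen differences was not tested. Among 25 integrins and laminins 4 rose and 0 fell, led by Itgam and Itgb2, the leukocyte integrin chains that also serve as a complement receptor on microglia. Itgam stood at 1.71, 1.59 and 1.602 FPKM in WT and 4.096, 4.62 and 3.88 FPKM in KO (log2 difference 0.98 ± 0.10 SE, limma adjusted p = 0.0568).

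In 19 of 30 microglia genes that rose, KO replicate 3 was at least as far from the WT mean as KO replicates 1 and 2 were on average. KO replicate 3 entered the fit that called them, so this count is a description. Of 40 microglia and macrophage genes tested 30 rose and 0 fell, and 7 of the 40 were under 1 FPKM in WT. The 5 defining microglia markers summed to 36.0 to 43.1 FPKM in WT and to 84.4, 82.7 and 102 FPKM in KO, with all 5 free of overlap. FPKM are scaled by library size. More microglia, more RNA per microglial cell and a changed mix of other cells or tissue therefore cannot be told apart. Csf1r, the receptor that keeps microglia alive, stood at 11.5, 10.8 and 11.8 FPKM in WT and 21.8, 21.6 and 23.6 FPKM in KO (log2 difference 0.92 ± 0.10 SE, limma adjusted p = 0.0568). Cx3cr1, their fractalkine receptor, stood at 5.18, 4.45 and 3.78 FPKM in WT and 9.22, 8.26 and 8.95 FPKM in KO (log2 difference 0.85 ± 0.13 SE, limma adjusted p = 0.0612), and the Fc receptor Fcgr3 stood at 3.55, 3.58 and 2.73 FPKM in WT and 7.83, 7.596 and 8.199 FPKM in KO (log2 difference 1.06 ± 0.12 SE, limma adjusted p = 0.0568). In each the 3 KO libraries lay together, all above WT. Lyz2, the lysozyme of macrophages and some microglia, stood at 6.48, 5.06 and 2.15 FPKM in WT and 43.1, 38.3 and 25.5 FPKM in KO (log2 difference 2.78 ± 0.35 SE, limma adjusted p = 0.0612), and Spp1, which encodes osteopontin, stood at 28.98, 26.4 and 21.9 FPKM in WT and 92.6, 98.4 and 59.8 FPKM in KO (log2 difference 1.64 ± 0.21 SE, limma adjusted p = 0.0612). Those 2 were lowest among KO libraries in KO replicate 3.

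Complement genes rose in 12 of 22 tested and fell in 0, and 4 of the 22 were under 1 FPKM in WT. C1qa, which starts the classical pathway and tags synapses for removal, stood at 18.6, 17.2 and 12.03 FPKM in WT and 38.8, 38.3 and 56.5 FPKM in KO (log2 difference 1.42 ± 0.22 SE, limma adjusted p = 0.0612). C1qb and C1qc, the other chains, stood at 12.7, 10.4 and 7.22 FPKM in WT and 26.5, 25.2 and 34.1 FPKM in KO (log2 difference 1.43 ± 0.22 SE, limma adjusted p = 0.0612) and at 12.1, 12.5 and 9.302 FPKM in WT and 27.3, 27.95 and 37.7 FPKM in KO (log2 difference 1.37 ± 0.17 SE, limma adjusted p = 0.0612). C4b, the next component, stood at 2.599, 2.41 and 2.16 FPKM in WT and 8.84, 9.09 and 12.9 FPKM in KO (log2 difference 1.72 ± 0.16 SE, limma adjusted p = 0.0543). KO replicate 3 was the highest of all 6 libraries in these 4 genes. C3 did the reverse: at 0.831, 0.7297 and 0.242 FPKM in WT and 32.01, 31.4 and 2.97 FPKM in KO it had the largest rise past the threshold among genes that reached a group mean of 5 FPKM without overlap of the groups, accession-like symbols left out (log2 difference 3.36 ± 0.80 SE, limma adjusted p = 0.0752), and KO replicates 1 and 2 were far above KO replicate 3. Cfd, complement factor D, reached 107 and 101 FPKM in the first and second KO libraries, was listed at 0 in the other 4 libraries and did not pass (limma adjusted p = 0.140). The inhibitors Serping1 and Cd59a also rose, Cd59a with 4.09, 4.303 and 5.36 FPKM in WT and 14.4, 12.9 and 9.12 FPKM in KO (log2 difference 1.22 ± 0.18 SE, limma adjusted p = 0.0612).

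Antigen presentation genes rose in 10 of 27 tested members and fell in 0, and 5 of the 27 were under 1 FPKM in WT. Those of class II, which macrophages use to show peptides to T cells, were highest in KO replicates 1 and 2. Cd74, the chain that guides class II molecules, stood at 3.06, 2.13 and 0.454 FPKM in WT and 24.4, 23.2 and 8.49 FPKM in KO (log2 difference 2.77 ± 0.51 SE, limma adjusted p = 0.06396). H2-Aa stood at 1.26, 0.218 and 0.265 FPKM in WT and 9.41, 9.38 and 2.76 FPKM in KO (log2 difference 2.29 ± 0.45 SE, limma adjusted p = 0.0648), and H2-Eb1 stood at 0.393, 1.21 and 0.269 FPKM in WT and 5.47, 4.91 and 2.38 FPKM in KO (log2 difference 1.68 ± 0.31 SE, limma adjusted p = 0.06396). WT replicate 3 was at or near the bottom and KO replicate 3 above every WT library in all 3. The class I gene H2-K1 stood at 10.2, 10.5 and 4.14 FPKM in WT and 23.7, 22.9 and 17 FPKM in KO (log2 difference 1.33 ± 0.33 SE, limma adjusted p = 0.0776). H2 genes are close copies of each other, so the counting may have shared their reads.

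The promoters of H2-Aa and H2-Eb1 are shown because both rose together and class II promoters are known for a shared box, CTGATTGG, which the factor NF-Y binds. The stretch is the 160 bases before the start site in RefSeq annotation of build GRCm38.p6, 5′ to 3′ on the strand of the gene, with the box in capitals. H2-Aa is at chr17:34287824-34287983 on the minus strand and H2-Eb1 at chr17:34305707-34305866 on the plus strand.
H2-Aa: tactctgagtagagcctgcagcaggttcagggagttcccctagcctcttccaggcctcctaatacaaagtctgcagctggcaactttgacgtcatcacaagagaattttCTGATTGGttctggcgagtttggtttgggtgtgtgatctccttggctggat
H2-Eb1: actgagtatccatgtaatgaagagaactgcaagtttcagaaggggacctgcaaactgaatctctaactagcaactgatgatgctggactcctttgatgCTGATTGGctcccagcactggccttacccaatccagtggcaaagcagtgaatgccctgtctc
The box begins 51 bases before the start site in H2-Aa and 62 bases before it in H2-Eb1. The letters, sought on both strands in the 250 bases before each start site, occur in 1198 of 27025 genes with a promoter in the table (4.43%). They occur in 6 of 19 antigen presentation genes that matched a promoter, 2 of 8 that rose and 4 of 11 others.

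Interferon-induced genes rose in 24 of 46 tested and fell in 1, and 14 of the 46 were under 1 FPKM in WT, so those could pass the filter only upward. Gbp3, a guanylate-binding protein, stood at 1.47, 1.402 and 1.36 FPKM in WT and 2.47, 2.64 and 2.21 FPKM in KO (log2 difference 0.51 ± 0.10 SE, limma adjusted p = 0.0648). Ddx58, the cytosolic RNA sensor RIG-I, stood at 1.43, 1.57 and 1.601 FPKM in WT and 3.1, 2.898 and 3.54 FPKM in KO (log2 difference 0.72 ± 0.11 SE, limma adjusted p = 0.0612). Irgm1, an interferon-induced GTPase, stood at 2.34, 2.55 and 2.04 FPKM in WT and 3.59, 4.12 and 4.81 FPKM in KO (log2 difference 0.64 ± 0.13 SE, limma adjusted p = 0.0648). No KO library of these 3 genes reached down to WT, and KO replicate 3 was highest in Ddx58 and Irgm1. Ifi27l2a was highest in KO replicates 1 and 2, with 0.876, 1.197 and 0.398 FPKM in WT and 15.8, 17.2 and 3.72 FPKM in KO (log2 difference 2.66 ± 0.52 SE, limma adjusted p = 0.0648). Ifit3 stood at 3.83, 3.16 and 0.984 FPKM in WT and 4.04, 4.51 and 6.84 FPKM in KO and did not pass (log2 difference 0.82 ± 0.35 SE, limma adjusted p = 0.169).

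Promoters of Gbp3, which rose, and Ifit3, which did not pass, are shown for the interferon element GAAANNGAAA, bound by STAT and IRF factors. The stretch is again 160 bases before a RefSeq start site of build GRCm38.p6, with the element or its reverse complement in capitals. Gbp3 is at chr3:142559884-142560043 on the plus strand, 1 of its listed start sites, and Ifit3 at chr19:34583369-34583528 on the plus strand.
Gbp3: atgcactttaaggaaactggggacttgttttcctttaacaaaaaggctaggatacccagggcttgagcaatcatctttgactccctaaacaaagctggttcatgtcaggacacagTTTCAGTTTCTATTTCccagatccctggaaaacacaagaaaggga
Ifit3: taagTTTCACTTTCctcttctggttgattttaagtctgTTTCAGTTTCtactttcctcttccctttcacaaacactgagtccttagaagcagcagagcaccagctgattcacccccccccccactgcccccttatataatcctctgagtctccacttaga
In Gbp3 overlapping matches begin 45 and 39 bases before the start site, and in Ifit3 separate matches begin 156 and 122 bases before it. Sought on both strands of the 250 bases before each start site, the element occurs in 936 of 27025 genes (3.46%). It occurs in 15 of 36 interferon-induced genes with a promoter in the table, 7 of 18 that rose and 8 of 18 others. A match of letters is a description and says nothing of binding in these cells.

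Genes of chemokines and their receptors rose in 5 of 15 tested members, and 4 of the 15 were under 1 FPKM in WT. Ccl6 stood at 0.207, 0.284 and 0.378 FPKM in WT and 6.05, 6.91 and 2.505 FPKM in KO (log2 difference 2.17 ± 0.30 SE, limma adjusted p = 0.0612). Cathepsins, the lysosomal proteases, rose in 5 of 13, with Ctss, the protease of microglia and macrophages, at 18.2, 16.9 and 14.1 FPKM in WT and 30.9, 31.7 and 55.7 FPKM in KO (log2 difference 1.17 ± 0.24 SE, limma adjusted p = 0.0648). Ctsd stood at 149, 144 and 128 FPKM in WT and 189, 185 and 230 FPKM in KO (log2 difference 0.52 ± 0.13 SE, limma adjusted p = 0.0779). KO replicate 3 was highest in both proteases and lowest of the KO libraries in Ccl6. Galectins, annexins and S100 proteins rose in 8 of 23, and 4 of the 23 were under 1 FPKM in WT. Anxa2 stood at 7.01, 6.89 and 8.29 FPKM in WT and 20.03, 16.2 and 18.2 FPKM in KO (log2 difference 1.19 ± 0.13 SE, limma adjusted p = 0.0568), and Anxa5 stood at 37.3, 35.7 and 27.2 FPKM in WT and 68.5, 70.1 and 52.8 FPKM in KO (log2 difference 0.91 ± 0.17 SE, limma adjusted p = 0.0648).

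**Figure D4:**
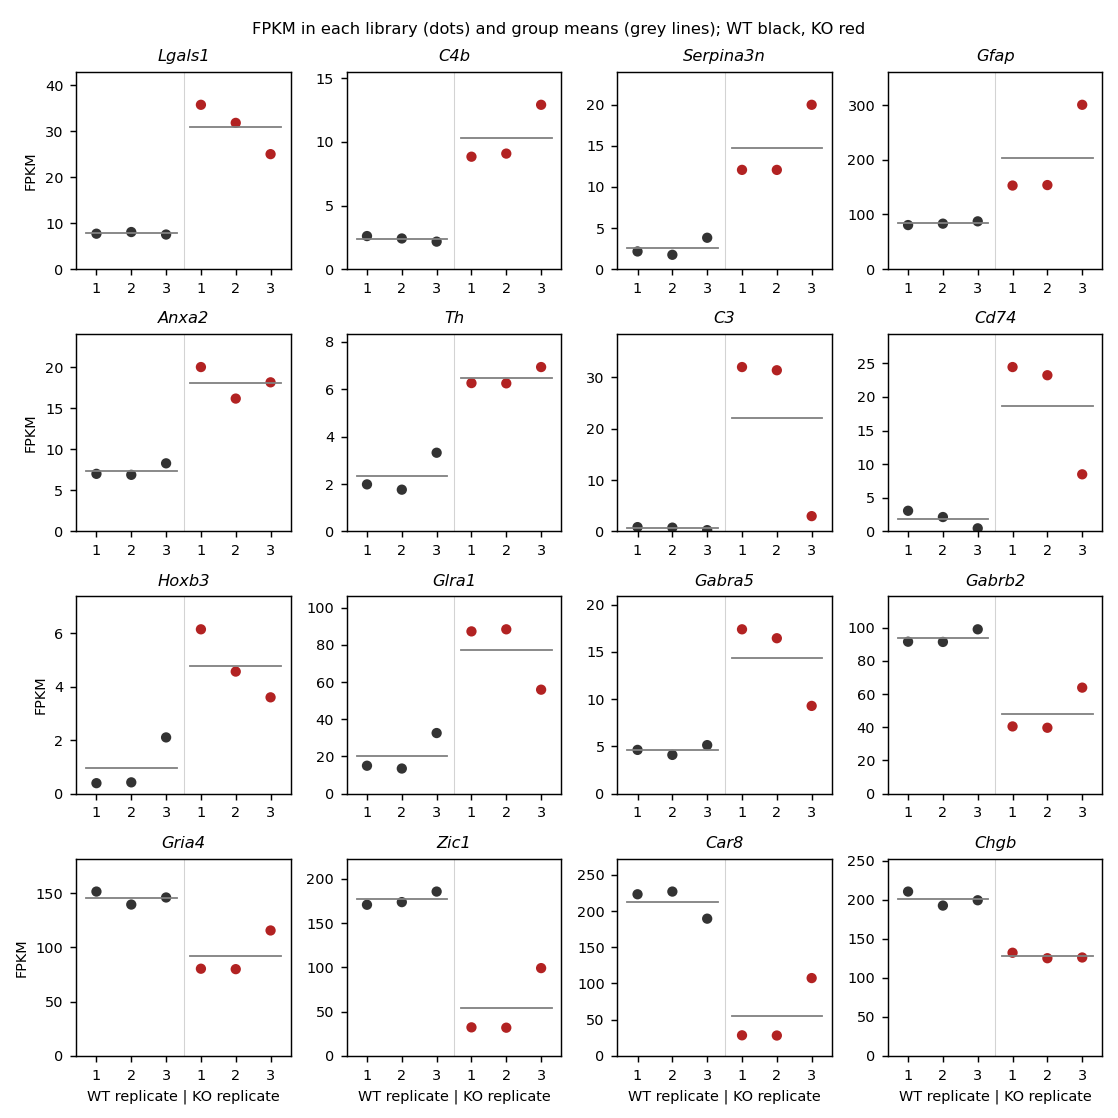
Dots are the FPKM of a gene in each library, WT in black and KO in red, and grey lines are group means. In C4b, Serpina3n and Gfap the third KO dot is the highest, in Anxa2, Th and Chgb it is level with the other KO dots, and in Zic1, Car8, Gria4 and Gabrb2 it lies between them and WT.

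Glial families differed from each other. Of 21 reactive glia genes 9 rose and 0 fell, and 3 of the 21 were under 1 FPKM in WT. Gfap, the filament of astrocytes, stood at 80.6, 83.2 and 87.4 FPKM in WT and 153, 154 and 301 FPKM in KO (log2 difference 1.19 ± 0.27 SE, limma adjusted p = 0.0703). Serpina3n, an acute phase inhibitor of proteases that reactive astrocytes make, stood at 2.15, 1.74 and 3.82 FPKM in WT and 12.1, 12.1 and 20.01 FPKM in KO (log2 difference 2.14 ± 0.27 SE, limma adjusted p = 0.0612). KO replicate 3 was the highest library in both, and no KO library overlapped with WT. Among 35 astrocyte and Bergmann glia genes 7 rose and 6 fell. The glutamine synthetase gene Glul stood at 379, 359.7 and 384 FPKM in WT and 672, 616 and 570.2 FPKM in KO (log2 difference 0.72 ± 0.11 SE, limma adjusted p = 0.0612). Slc1a3, the glutamate transporter of Bergmann glia, stood at 245, 231 and 275 FPKM in WT and 79.1, 74.4 and 168 FPKM in KO (log2 difference -1.32 ± 0.31 SE, limma adjusted p = 0.0737). Gdf10, a defining marker of Bergmann glia, stood at 34.1, 36.2 and 54.03 FPKM in WT and 5.49, 5.34 and 21.1 FPKM in KO (log2 difference -2.101 ± 0.49 SE, limma adjusted p = 0.0743), and Hopx stood at 84.6, 93.6 and 62.8 FPKM in WT and 39.3, 36.1 and 49.99 FPKM in KO (log2 difference -0.92 ± 0.19 SE, limma adjusted p = 0.0648). In the 3 named here that fell, KO replicate 3 lay between WT and the other KO libraries.

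Myelin genes rose in 12 of 33 tested and fell in 0, with 32 positive differences. Plekhb1 stood at 143, 138 and 84.9 FPKM in WT and 324, 274 and 198 FPKM in KO (log2 difference 1.12 ± 0.26 SE, limma adjusted p = 0.0737), and Aspa, which breaks down acetylaspartate in oligodendrocytes, stood at 16.3, 18.9 and 18.8 FPKM in WT and 41.6, 42.6 and 27.9 FPKM in KO (log2 difference 0.99 ± 0.18 SE, limma adjusted p = 0.06396). Bcas1, a marker of myelinating cells, stood at 67.6, 58.97 and 49.7 FPKM in WT and 164, 164 and 87.1 FPKM in KO (log2 difference 1.18 ± 0.27 SE, limma adjusted p = 0.0718). KO replicates 1 and 2 were the highest libraries in these genes. The sum of 5 defining oligodendrocyte markers was 2463, 2378 and 4804 FPKM in WT and 5363, 4984 and 3236 FPKM in KO, so the groups overlapped, and 1 of the 5 was free of overlap. Precursor genes rose in 4 of 19 and fell in 1.

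In most families of basic cell maintenance the share past the threshold was under the background in both directions, with antioxidant genes an exception. Of 43 proteasome subunits, 18 proton pump subunits and 23 cholesterol synthesis genes, 0 passed in limma at an adjusted p under 0.10, with 5, 0 and 1 at an unadjusted p under 0.05. Among 87 respiratory chain subunits 0 rose and 2 fell, and among 83 chaperones 1 rose and 3 fell. Hspb8, a small heat shock protein, was the chaperone that rose, with 8.58, 6.97 and 9.56 FPKM in WT and 19.7, 20.6 and 17.4 FPKM in KO (log2 difference 1.12 ± 0.14 SE, limma adjusted p = 0.0612). Fdft1, in cholesterol synthesis, stood at 10.4, 10.3 and 12.7 FPKM in WT and 23.4, 21.9 and 11.8 FPKM in KO (log2 difference 0.67 ± 0.26 SE, limma adjusted p = 0.138), which did not pass, and KO replicate 3 lay within the WT range. Without KO replicate 3, 9 of the 23 cholesterol genes were higher at an adjusted p under 0.05, as were 14.2% of all genes. KO replicate 3 was above all WT libraries in 0 of those 9. Antioxidant genes rose in 7 of 41, with the secreted glutathione peroxidase Gpx3 at 2.196, 2.13 and 2.92 FPKM in WT and 10.9, 9.75 and 5.44 FPKM in KO (log2 difference 1.47 ± 0.24 SE, limma adjusted p = 0.06396) and Hmox1, a haem oxygenase, at 2.49, 2.498 and 1.36 FPKM in WT and 4.76, 3.79 and 6.13 FPKM in KO (log2 difference 0.92 ± 0.21 SE, limma adjusted p = 0.0735). Ribosomal protein genes rose in 3 of 66 and fell in 0, while 52 differences were positive and 16 members (24.2%) were higher without overlap, against 15.2% of all genes.

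Among cytoskeletal genes more rose than fell. Of 33 tubulin and neurofilament genes 7 rose and Tuba8 fell. Nefh, the heavy neurofilament, stood at 55.5, 53.5 and 62.6 FPKM in WT and 190, 179 and 93.4 FPKM in KO (log2 difference 1.35 ± 0.27 SE, limma adjusted p = 0.0648), and Prph, a filament of motor and sensory neurons, stood at 0.328, 0.789 and 4.64 FPKM in WT and 16.1, 16.4 and 8.92 FPKM in KO (log2 difference 2.59 ± 0.54 SE, limma adjusted p = 0.0648). Tuba8 stood at 26.7, 20.5 and 19.6 FPKM in WT and 8.28, 7.51 and 13.8 FPKM in KO (log2 difference -1.13 ± 0.24 SE, limma adjusted p = 0.0648). Among 41 kinesins and dyneins 8 rose and 0 fell. Kif21b stood at 6.299, 6.16 and 6.58 FPKM in WT and 10.1, 10.1 and 10.1 FPKM in KO (log2 difference 0.60 ± 0.09 SE, limma adjusted p = 0.0625), the same in all 3 KO libraries at this precision, whereas Nefh was higher in KO replicates 1 and 2.

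Medians of the 6 chromatin families leaned downward, mainly in KO replicates 1 and 2. Relative to the WT mean they ran from -0.53 to -0.17 in those 2 libraries. In KO replicate 3 they ran from -0.15 to -0.01, and in the WT libraries from -0.06 to 0.15. The H3K4 methylation family, with the targeted gene among its members, had 3 of 23 tested lower and 0 higher. Kdm6a, the H3K27 demethylase that sits in the MLL4 complex, stood at 18.4, 21.3 and 28.03 FPKM in WT and 11.6, 12.8 and 16.4 FPKM in KO (log2 difference -0.69 ± 0.19 SE, limma adjusted p = 0.0875). Wdr82, a subunit of the SET1 complexes, stood at 49.8, 51.7 and 48.8 FPKM in WT and 29.4, 28.95 and 37.6 FPKM in KO (log2 difference -0.64 ± 0.13 SE, limma adjusted p = 0.0648). Mll3, the close relative of MLL4 now named Kmt2c, stood at 36.1, 41.5 and 41.2 FPKM in WT and 23.3, 25.05 and 37.5 FPKM in KO and missed the threshold (log2 difference -0.48 ± 0.19 SE, limma adjusted p = 0.144), as did Wbp7 with 14.4, 14.8 and 15.1 FPKM in WT and 7.98, 8.28 and 13.7 FPKM in KO (log2 difference -0.56 ± 0.20 SE, limma adjusted p = 0.122). In each library the median of the family was 0.03, 0.02 and -0.05 in WT and -0.53, -0.52 and -0.01 in KO, so KO replicate 3 was level with WT. Histone demethylases fell in 6 of 32, and Jarid2, a partner of Polycomb complexes, fell, with 36.1, 30.9 and 45.4 FPKM in WT and 15.1, 13.1 and 23.9 FPKM in KO (log2 difference -1.09 ± 0.24 SE, limma adjusted p = 0.0703).

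Polycomb genes fell in 5 of 33 and rose in 0. Eed, a core subunit of the complex that methylates H3K27, stood at 11.3, 10.6 and 11.2 FPKM in WT and 6.18, 7.11 and 8.42 FPKM in KO (log2 difference -0.55 ± 0.13 SE, limma adjusted p = 0.0731), and Cbx8 stood at 9.43, 8.97 and 9.87 FPKM in WT and 4.55, 6.49 and 5.83 FPKM in KO (log2 difference -0.66 ± 0.14 SE, limma adjusted p = 0.0648). Of 55 chromatin remodellers 8 fell and 2 rose. Chd7, which granule neuron precursors need, stood at 67.1, 60.1 and 62.03 FPKM in WT and 14.5, 12.3 and 49.7 FPKM in KO (log2 difference -1.55 ± 0.48 SE, limma adjusted p = 0.0995), and Chd5, a neuronal remodeller, stood at 13.99, 13.2 and 11.5 FPKM in WT and 28.3, 29.9 and 17.8 FPKM in KO and rose (log2 difference 0.89 ± 0.21 SE, limma adjusted p = 0.0735). Chd7 in KO replicate 3 was nearer WT than the other KO libraries. Among 20 DNA methylation genes 2 fell and 1 rose, and Tet3, which oxidises methylcytosine, stood at 18.3, 17.4 and 24.9 FPKM in WT and 7.88, 8.49 and 15.7 FPKM in KO (log2 difference -0.90 ± 0.27 SE, limma adjusted p = 0.0949). Acetyltransferases and deacetylases fell in 2 of 34 and rose in 1, both under the background share. Sirt1, a deacetylase, stood at 11.2, 10.9 and 10.6 FPKM in WT and 4.51, 5.63 and 8.505 FPKM in KO and fell (log2 difference -0.76 ± 0.20 SE, limma adjusted p = 0.0827).

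Median log2 differences of the 6 chromatin families, over all 3 KO libraries, ran from -0.41 to -0.14. Granule neuron markers fell in 19 of 24 tested and Purkinje markers in 28 of 32, with median log2 differences of -1.62 and -1.28. The largest falls past the threshold with at least 5 FPKM included Cnpy1, at 99.6, 98.97 and 120.2 FPKM in WT and 8.92, 9.24 and 60.6 FPKM in KO (log2 difference -2.54 ± 0.68 SE, limma adjusted p = 0.0844), and Ltbp2, a matrix protein, at 13.8, 13.8 and 13.6 FPKM in WT and 0.819, 0.728 and 7.504 FPKM in KO (log2 difference -2.301 ± 0.59 SE, limma adjusted p = 0.0806). Il16 stood at 71.7, 68.8 and 82.2 FPKM in WT and 8.597, 8.57 and 46.4 FPKM in KO (log2 difference -2.200 ± 0.60 SE, limma adjusted p = 0.0856), and Dusp5, a phosphatase that switches off ERK, stood at 36.1, 30.7 and 37.8 FPKM in WT and 5.71, 4.65 and 13.9 FPKM in KO (log2 difference -2.11 ± 0.35 SE, limma adjusted p = 0.06396). All 4 had KO replicate 3 between the other KO libraries and WT. Of 18 markers of cerebellar interneurons and unipolar brush cells 5 rose, Pax2 and Slc6a5 among them, and 5 fell. Eomes, which marks unipolar brush cells, stood at 5.38, 5.72 and 10.5 FPKM in WT and 1.26, 0.9696 and 2.26 FPKM in KO (log2 difference -1.697 ± 0.28 SE, limma adjusted p = 0.06396). Blood, endothelial and choroid plexus lists gave 1 of 6, 0 of 33 and 2 of 20 higher, with 1 endothelial gene lower. Hba-a2, a haemoglobin chain, stood at 78.1, 72.1 and 373 FPKM in WT and 197, 171 and 801 FPKM in KO and did not pass (log2 difference 1.22 ± 0.81 SE, limma adjusted p = 0.336).

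KO replicate 3 did not take up the same position in every family. Its distance from the WT mean, divided by the mean distance of KO replicates 1 and 2, had a median of 0.53 over the 2381 genes past the threshold and reached 1 or more in 267 of them (11.2%). The share was 15.8% among genes that rose and 6.68% among genes that fell. KO replicate 3 entered the fit that called these genes. Its value thus had a part in the choice, and these shares are descriptions. Of the 30 microglia genes that rose 19 were at 1 or more, as were 14 of the 25 interferon-induced genes that passed, 7 of 9 reactive glia genes and 6 of 12 complement genes. None of the 19 granule neuron markers or 28 Purkinje markers that fell reached it, and neither did any of the 12 myelin genes that rose.

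A different measure, whether KO replicate 3 lay beyond all 3 WT libraries, was taken for genes chosen without it. The WT libraries and the filter entered that choice, so these counts are descriptions. Of 2097 genes higher in KO replicates 1 and 2 at an adjusted p under 0.05 and tested in both fits, KO replicate 3 was above all 3 WT libraries in 1521. Of 2927 lower genes it was below all 3 in 1929. It was above all WT libraries in 28 of 28 microglia genes, 20 of 20 interferon-induced genes and 8 of 8 reactive glia genes. It was below all WT libraries in 23 of 24 granule neuron markers and 28 of 29 Purkinje markers. Among higher genes it was above all WT libraries in 20 of 26 potassium channels, 4 of 11 chaperones and 6 of 8 protocadherins. Among lower genes it was below all WT libraries in 7 of 15 potassium channels, 5 of 6 chaperones and 10 of 24 protocadherins.

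**Figure D5:**
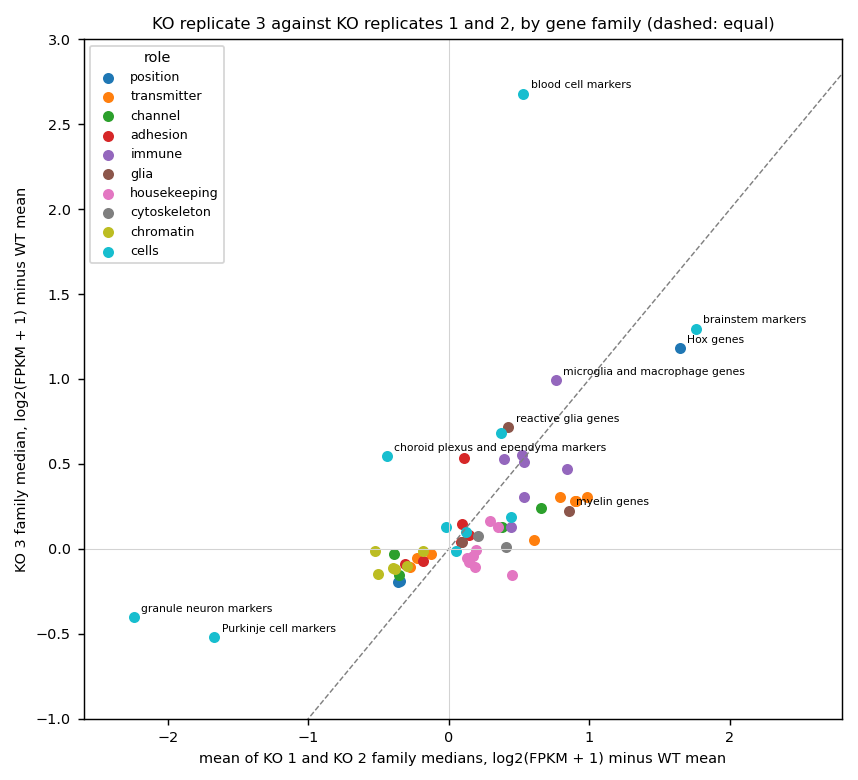
Each point is a gene family, with its median log2(FPKM + 1) minus the WT mean in KO replicates 1 and 2 (their mean, x axis) and in KO replicate 3 (y axis), coloured by role. Granule and Purkinje markers lie far above the dashed line of equality at small negative values of KO replicate 3, microglia and reactive glia genes lie just above it, and choroid plexus and blood markers stand apart.

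Genes that were lower by at least as much in KO replicate 3 were chosen on that value, so it is a description of them. Nr4a3, an orphan nuclear receptor induced by neuronal activity, stood at 2.91, 3.31 and 3.56 FPKM in WT and 1.14, 0.935 and 0.729 FPKM in KO (log2 difference -1.14 ± 0.12 SE, limma adjusted p = 0.0568), and its relative Nr4a1 stood at 6.12, 5.33 and 13.3 FPKM in WT and 2.68, 2.76 and 2.57 FPKM in KO (log2 difference -1.23 ± 0.30 SE, limma adjusted p = 0.0759). Rem2, a small GTPase that restrains calcium channels, stood at 3.82, 4.73 and 5.304 FPKM in WT and 1.45, 1.19 and 1.19 FPKM in KO (log2 difference -1.297 ± 0.13 SE, limma adjusted p = 0.0568). In these 3 genes the KO libraries lay together and below every WT library. Tcf7l2, a partner of beta-catenin, stood at 11.9, 11.6 and 4.73 FPKM in WT and 2.84, 3.27 and 2.25 FPKM in KO (log2 difference -1.38 ± 0.32 SE, limma adjusted p = 0.0742), with WT replicate 3 the lowest WT library. Among the 10 largest rises of this kind were the 3 C1q chains, C4b, Cd52, Laptm5 and Aif1, which mark microglia or complement, with Serpina3n and Hoxb5. Aif1 stood at 1.08, 0.793 and 0.169 FPKM in WT and 2.77, 3.99 and 3.38 FPKM in KO (log2 difference 1.41 ± 0.23 SE, limma adjusted p = 0.06396), and Laptm5, a lysosomal protein of blood-derived cells, stood at 5.74, 5.196 and 2.301 FPKM in WT and 9.17, 10.4 and 14.3 FPKM in KO (log2 difference 1.23 ± 0.30 SE, limma adjusted p = 0.0765).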

How the data were processed

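Total RNA of 1-month cerebellum was sequenced on an Illumina instrument, per the labels. Per the submitters' processing notes, the authors used TopHat2 2.1.0, Bowtie 1.1.2, Cuffdiff and genome build mm9, and deposited 1 table of FPKM values. FPKM are not counts, and without counts neither depth nor counting error can be given for a library. Annotation, strand setting and further scaling are stated nowhere in the sources used here, so overlapping, antisense and closely related genes cannot be told apart. Between 19596 and 20433 genes were above 0 in a library. Symbols were matched to annotation of build GRCm38.p6 for names (19772 current and 2659 older, 74.9%). RefSeq promoters of that build were matched by symbol.

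A repeated header row was dropped, and genes averaging 1 FPKM or more were taken as log2(FPKM + 1). The fit was made by limma 3.58.1 (R 4.3.3), with genotype as the only term and Benjamini-Hochberg adjustment over all 14847 genes. The script was tested on simulated data. Families are symbol patterns or lists, and members, lists and the second threshold were chosen with earlier results of these data known. Genes were named by a rule: the targeted gene and its relatives, genes past 0.05, the 15 largest changes in each direction past 0.10 that reached a group mean of 5 FPKM without overlap, up to 6 members of each family with the smallest p, the 10 largest changes in each direction in which KO replicate 3 was at least as far from WT as the other KO libraries, and defining markers. Cacna1a, Cbln1, Cfd, Chd7, En2, Gabrq, Gbp3, Grin2c, Grin3a, H2-K1, Ifit3, Irgm1, Kcnk3, Ncs1 and Scn2a fall outside it and were chosen after their values were seen. The 29 chromatin samples and the 2 libraries of 4 months were not analysed here, except that the latter entered 1 alternative. Some genes are not reported here.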

Additional observations from a re-analysis of the deposited data

How the results depend on the processing

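The 16 alternatives, 1 of them (averaging replicates 1 and 2) added after seeing the data, were each set against the fit as reported. Genes past an adjusted p of 0.05, 4 as reported, numbered 12 with a pseudocount of 0.1, 1 with no filter on low values, 13 at a mean of at least 5 FPKM, 8 after quantile normalization, 42 with libraries shifted to 1 median, 8095 with array weights, 9 with limma-trend and robust fitting together, 0 when both ages were fitted with age as a term and 0 with replicates 1 and 2 averaged (in these last 2 limma fits 3937 and 1433 genes had an unadjusted p under 0.05). Leaving out 1 library gave 1 (WT replicate 1) to 5037 (KO replicate 3). Genes past 0.10, 2381 as reported, numbered 1363, 1455, 9371, 1542 and 1 with the pseudocount of 0.1, no filter, array weights, 8 libraries and averaging, and 1 to 6645 with 1 library left out. Groups without overlap, 5308 genes in all, numbered 5765 to 9473 with 1 library left out. Leaving out a library can only remove overlap, apart from changes in which genes pass the filter. These counts therefore had to lean upward. Where a genotype was left with 2 libraries the spread was pooled over both genotypes. The targeted gene passed with array weights (log2 difference -0.50, limma adjusted p = 0.00746) and without KO replicate 3 (-0.58, limma adjusted p = 0.0167), and reached -0.15 without KO replicate 1. The causes were not tested.

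Same-numbered libraries of the 2 genotypes deviated from their group means with correlations of 0.17, 0.03 and 0.04, not all over 0.1, so they were not treated as pairs. These correlations cannot show that the libraries were unrelated, since KO replicate 3 stood apart from the other KO libraries. Symbols of small RNAs took 31.9%, 44.7% and 36.2% of the summed FPKM in WT and 24.4%, 43.5% and 36.8% in KO. The shares of replicates 2 and 3 were thus alike across genotypes. Summed FPKM were 498298, 609194 and 561831 in WT and 474126, 623726 and 551470 in KO, in the same order by replicate number. The labels do not say whether same-numbered libraries were handled together, and this was not tested. With a replicate block 0 genes passed 0.05 and 2700 passed 0.10, with 4892 at an unadjusted p under 0.05 in limma.

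Of 382 named genes, direction and side of the 0.10 threshold were kept by 361 with libraries shifted to 1 median, by 313 with a pseudocount of 0.1 and by 92 to 309 of 378 to 382 with 1 library left out. Log2 differences of opposite sign were, with 8 libraries and age as a term, Aldh1l1 (-0.081), Atp6v0a2 (-0.064), Cacng4 (-0.11), Cldn5 (-0.089), Neurod6 (0.83), Nrgn (0.66), Pax2 (-0.068), Slc2a1 (-0.084), Slc6a9 (-0.083) and Syt2 (-0.29). With replicates 1 and 2 averaged they were Aldh1l1 (-0.058), Aqp4 (0.032), Gpr17 (-0.049), Kcnj13 (0.015) and Kl (0.21), and with array weights Atp6v0b (0.0097). With 1 library left out, Aldh1l1 ran from -0.048 to 0.091, Aqp4 from -0.26 to 0.0021, Gpr17 from -0.070 to 0.71 and Kl from -0.61 to 0.16. Family medians of the opposite sign numbered at most 5 of 57 in any alternative, the 5 with 8 libraries.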
